A study of Homo sapiens with 10 samples.

Results

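The SWI/SNF remodeler was examined here through 10 of its subunits, *ARID1A*, *ARID1B*, *ARID2*, *SMARCA2*, *SMARCA4*, *SMARCB1*, *SMARCC1*, *SMARCC2*, *SMARCE1* and *PBRM1*. They were chosen by symbol as a complex that opposes the NuRD remodeler of which CHD4 is the ATPase. No measured value was used to choose them, though earlier results of these data were known. Of the 10 genes, 9 had a row among the 19695 genes counted, and all 9 passed the filter on low counts in every comparison. *SMARCB1* was not analysed here for expression.

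SWI/SNF complexes use the energy of ATP to slide and evict nucleosomes, which opens enhancers and promoters to transcription factors. In mammalian cells they assemble as canonical BAF, which carries ARID1A or ARID1B, and as PBAF, which carries ARID2 and PBRM1, around a shared core and a single ATPase, SMARCA4 (BRG1) or SMARCA2 (BRM). NuRD couples the CHD4 ATPase to histone deacetylases and is mostly linked to gene repression, and several SWI/SNF subunit genes, *ARID1A* and *PBRM1* among them, are recurrently mutated in human cancers.

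RNA-seq had been carried out in T47D, an established human luminal breast cancer cell line, 72 h after transfection with control siRNA, siRNA against *TRPS1*, which encodes an atypical GATA factor that represses transcription, or siRNA against *CHD4*. Each of the 3 groups held 2 libraries, and the labels do not say whether these came from separate cultures, so p-values measure only the spread between these libraries. The knockdown of *CHD4* is named as siRNA in the labels and as shRNA in the study's RNA-seq methods. All 3 groups share the parental line and the transfection, and no untransfected cells were analysed here.

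The library totals ranged from 10333138 to 14668358 counts, and each member was covered by 413 to 5040 counts in every library, far above the limit of 3 counts. Levels are given as CPM, the count as a share of the library total, scaled by the trimmed mean of *M*-values (TMM). *CHD4* was at 295 and 292 CPM in the control libraries, at 298 and 271 CPM upon silencing *TRPS1*, and at 96.2 and 54.2 CPM upon silencing *CHD4* (log2 fold change -1.96 against control siRNA). *TRPS1* was at 1418 and 2323 CPM in the control libraries, at 1149 and 727 CPM upon silencing *TRPS1* (log2 fold change -0.97), and at 2462 and 1583 CPM upon silencing *CHD4*. The library labelled control siRNA replicate 1 stood apart: on the first principal component, which held 58.6% of the variance, it lay at -91.2 and the other 5 libraries between 7.80 and 24.5. The members' fold changes against control siRNA, and the medians of the gene lists, are therefore given with and without it. All 10 luminal markers were above 2 CPM in every library, and their summed level ran from 13118 to 15794 CPM in the control libraries, from 6885 to 6886 upon silencing *TRPS1* and from 5764 to 7988 upon silencing *CHD4*. The 6 basal markers summed to 25.9 to 26.6 CPM, 50.7 to 51.2 CPM and 50.2 to 69.2 CPM in the same order. Mesenchymal markers summed to 69.0 to 157 CPM, leukocyte markers to 2.36 to 8.84 CPM and endothelial markers to 0.072 to 1.41 CPM over the 6 libraries. All 4 knockdown libraries were below both control libraries for 5 of the 10 luminal markers (*ESR1*, *KRT8*, *KRT18*, *KRT19* and *XBP1*), and the other 5, *EPCAM*, *FOXA1* and *PGR* among them, overlapped. They were above both control libraries for 3 of the 6 basal markers (*ACTA2*, *MYLK* and *TP63*), while *KRT5*, *KRT14* and *KRT17* were below 1 CPM throughout. The part of these markers in the results on SWI/SNF was not tested.

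The sequences that define the comparisons are the siRNAs, each of 19 bases. The study lists a pair against *CHD4* without saying which was used for RNA-seq, so both are shown with the control, 5′ to 3′.
Control siRNA: uucuccgaacgugucacgu
CHD4 siRNA#1: cgggaguucaguaccaaua
CHD4 siRNA#2: gggcugcuuacuugaacau

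The ATPase genes were measured first, since each complex carries one or the other. *SMARCA4* stood at 231 and 133 CPM in the control libraries, 158 and 183 CPM upon silencing *TRPS1*, and 142 and 178 CPM upon silencing *CHD4*. The control libraries were the highest and the lowest of the 6, so the 4 knockdown libraries lay between them. The log2 fold change of *SMARCA4* was -0.094 ± 0.39 (SE) for *TRPS1* siRNA and -0.19 ± 0.42 for *CHD4* siRNA against control siRNA. The sign turned in both comparisons without control siRNA replicate 1, to 0.40 and 0.31, so no direction can be given for *SMARCA4*.

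*SMARCA2*, the alternative ATPase, was at 45.4 and 56.8 CPM in the control libraries, 48.2 and 59.0 CPM upon silencing *TRPS1*, and 38.7 and 40.3 CPM upon silencing *CHD4*. Both *CHD4* siRNA libraries were below the other 4. The log2 fold change of *TRPS1* siRNA against control siRNA was 0.085, or -0.037 without control siRNA replicate 1. The log2 fold change of *CHD4* siRNA was -0.36 against control siRNA (95% interval -1.25 to 0.54, and -0.47 without control siRNA replicate 1) and -0.44 against *TRPS1* siRNA (95% interval -0.86 to -0.020). The second had an unadjusted p of 0.043 and an adjusted p of 0.305 in edgeR's quasi-likelihood test, which did not pass. It moved to -0.28 without *TRPS1* siRNA replicate 2.

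The levels of the 9 measured subunits in each library are plotted by gene.

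**Figure D1:**
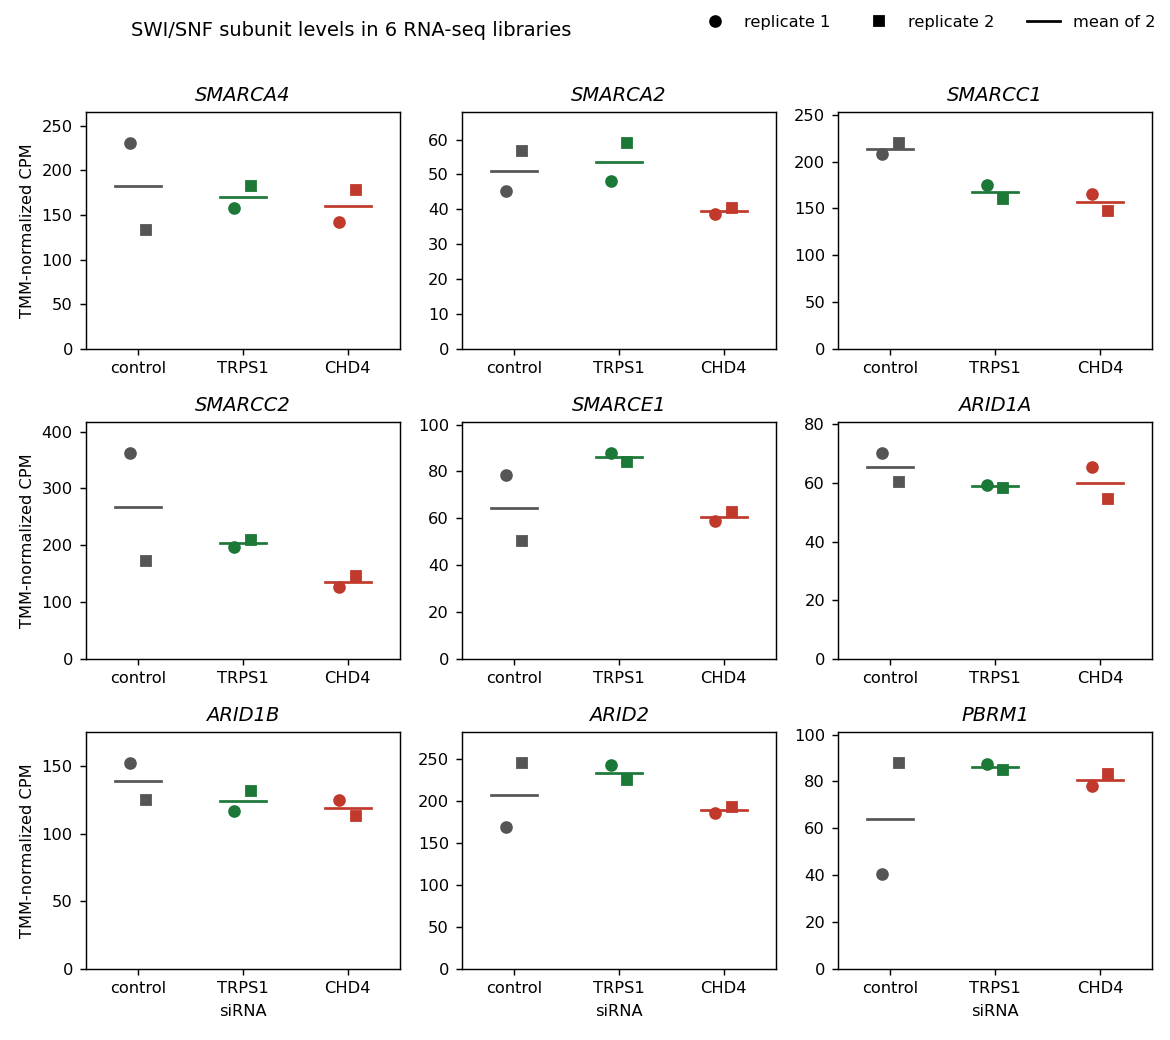
TMM-normalized CPM (y axis, from 0, a scale of its own in each panel) of the 9 SWI/SNF subunits in the 6 libraries; circles are replicate 1, squares replicate 2, and bars the mean of 2. Control siRNA replicate 1 is the highest library for *SMARCC2* (362 CPM) and the lowest for *PBRM1* (40.3 CPM), while both *CHD4* siRNA libraries lie below both *TRPS1* siRNA libraries for *SMARCA2*, *SMARCC2*, *SMARCE1*, *ARID2* and *PBRM1*.

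Among the core subunits, *SMARCC2* differed most between the knockdowns. It encodes BAF170, which with its paralog BAF155 (*SMARCC1*) forms the scaffold on which the complexes assemble. *SMARCC2* was at 362 and 173 CPM in the control libraries, 197 and 209 CPM upon silencing *TRPS1*, and 126 and 146 CPM upon silencing *CHD4*. The *CHD4* siRNA libraries were below every other library. Against *TRPS1* siRNA the level was 1.49-fold lower, a log2 fold change of -0.58 ± 0.15 (SE) with a 95% interval of -0.94 to -0.22. The unadjusted p was 0.0081 and the adjusted p 0.172 by edgeR, so it did not pass over all 13143 genes tested. Against control siRNA the log2 fold change upon silencing *CHD4* was -0.98 (95% interval -2.04 to 0.083), but it was -0.30 without control siRNA replicate 1 and -1.43 without control siRNA replicate 2, so its size rests on which control library is used. That of *TRPS1* siRNA was -0.40, and turned to 0.28 without control siRNA replicate 1.

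*SMARCC1* was at 208 and 220 CPM in the control libraries, 175 and 160 CPM upon silencing *TRPS1*, and 166 and 147 CPM upon silencing *CHD4*. It was the only member whose 4 knockdown libraries were all below both control libraries. The log2 fold changes against control siRNA were -0.34 (95% interval -1.09 to 0.40) and -0.44 (95% interval -1.25 to 0.37). Neither passed, with adjusted p of 0.737 and 0.798 by edgeR. No gene at all passed in either comparison, the silenced genes included, so this does not set *SMARCC1* apart. The smallest adjusted p over all genes was 0.659 and 0.749 by edgeR. The log2 fold changes of *SMARCC1* without control siRNA replicate 1 were -0.35 and -0.44. Between the knockdowns *SMARCC1* differed by -0.095 (95% interval -0.46 to 0.27).

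*SMARCE1* encodes BAF57, a core subunit with an HMG domain that binds DNA. It was at 78.4 and 50.1 CPM in the control libraries, 87.8 and 84.2 CPM upon silencing *TRPS1*, and 58.8 and 62.6 CPM upon silencing *CHD4*. Both *TRPS1* siRNA libraries were above the other 4, and both *CHD4* siRNA libraries lay between the 2 control libraries. The log2 fold change of *TRPS1* siRNA against control siRNA was 0.43 (95% interval -0.48 to 1.33, adjusted p of 0.732 by edgeR). Without control siRNA replicate 1 it was 0.82, with an unadjusted p of 0.0036 and an adjusted p of 0.0738 by edgeR, which did not pass. In that run 22.6% of all genes had an unadjusted p under 0.05. The adjusted p of *SMARCE1* ran from 0.0738 to 1.00 over the alternatives. For *CHD4* siRNA the log2 fold change against control siRNA was -0.079, and 0.33 without that library. *CHD4* siRNA against *TRPS1* siRNA gave -0.50 ± 0.15 (SE), with an unadjusted p of 0.014 and an adjusted p of 0.206 by edgeR, which did not pass.

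The subunits that set canonical BAF apart varied least across the libraries. *ARID1A*, which encodes the large ARID subunit of BAF and is a tumor suppressor, was at 70.2 and 60.5 CPM in the control libraries, 59.3 and 58.4 CPM upon silencing *TRPS1*, and 65.3 and 54.6 CPM upon silencing *CHD4*. The *TRPS1* siRNA libraries were just below the controls and the *CHD4* siRNA libraries overlapped with both, and its highest library was 1.28-fold above its lowest, the smallest such range of the 9 genes. The log2 fold changes against control siRNA were -0.14 and -0.12, and *CHD4* siRNA against *TRPS1* siRNA gave 0.029 (95% interval -0.38 to 0.43). *ARID1B*, the paralog that can take the place of *ARID1A*, was at 152 and 125 CPM in the control libraries, 117 and 132 CPM upon silencing *TRPS1*, and 125 and 113 CPM upon silencing *CHD4*. Its log2 fold changes were -0.15, -0.22 and -0.063 in the same order of comparisons, the last with a 95% interval of -0.42 to 0.30. Without control siRNA replicate 1 the values against control siRNA were 0.033 and -0.026 for *ARID1B*, and 0.0044 and 0.037 for *ARID1A*.

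Of the 9 genes, *PBRM1* showed the widest gap between the control libraries. *PBRM1*, which encodes the polybromo subunit of PBAF that reads acetylated histones, was at 40.3 and 87.8 CPM in the control libraries, 87.3 and 85.1 CPM upon silencing *TRPS1*, and 78.1 and 83.0 CPM upon silencing *CHD4*. All 4 knockdown libraries lay just below control siRNA replicate 2 and far above replicate 1. Its log2 fold changes against control siRNA, 0.45 and 0.35, became 0.018 and -0.074 without replicate 1, and 1.08 and 0.98 without replicate 2. *ARID2*, the ARID subunit of PBAF, was at 169 and 246 CPM in the control libraries, 243 and 226 CPM upon silencing *TRPS1*, and 186 and 193 CPM upon silencing *CHD4*. Here too the 4 knockdown libraries lay between the control libraries. Its log2 fold changes against control siRNA were 0.19 and -0.12, and -0.023 and -0.32 without control siRNA replicate 1, and *CHD4* siRNA was below *TRPS1* siRNA by a log2 fold change of -0.31 (95% interval -0.65 to 0.040, adjusted p of 0.372 by edgeR).

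**Figure D2:**
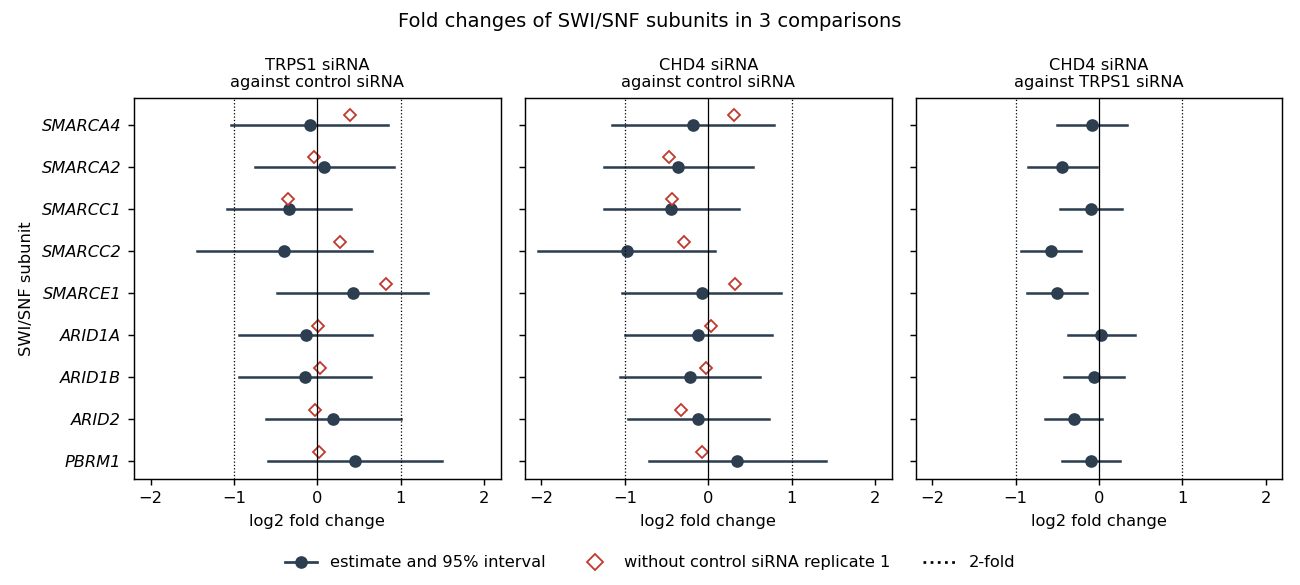
Log2 fold change (x axis) of each SWI/SNF subunit (y axis) in the 3 comparisons; filled circles and lines are the estimate and its 95% interval, open diamonds the estimate without control siRNA replicate 1, and dotted lines a 2-fold change. In *CHD4* siRNA against *TRPS1* siRNA all 9 intervals lie within 2-fold, against 4 and 2 in the comparisons with control siRNA.

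Upon silencing *TRPS1*, then, no subunit passed the study's threshold of a fold change over 2 with an unadjusted p under 0.05, which 5.87% of the 12921 genes tested passed. None had an unadjusted p under 0.05 in edgeR or in DESeq2, where 6.98% of all genes did in edgeR. The log2 fold changes ran from -0.40 to 0.45, with 4 genes higher and 5 lower, or 5 and 4 with libraries scaled by their totals alone. With the 4 libraries of the comparison scaled on their own, the groups did not overlap for *SMARCE1*, which was higher (22.8% of all genes), and *SMARCC1*, which was lower (21.3% of all genes). *ARID1A*, whose nearest libraries were at 59.3 and 60.5 CPM with all 6 libraries scaled at once, overlapped on the scale of these 4. The median over the 9 genes was -0.094, beside -0.024 over all genes. The 95% interval lay within a 2-fold change for 4 of the 9 genes, and a 2-fold change in at least 1 direction lay inside the interval of the other 5. Without control siRNA replicate 1, 6 genes were higher and 3 lower, the median was 0.018 beside 0.017 over all genes, and no member passed the study's threshold, which 8.11% of all genes passed. Without control siRNA replicate 2, the comparison then resting on the library that stands apart, 1 member (*PBRM1*) passed the study's threshold, beside 33.6% of all genes.

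Upon silencing *CHD4*, likewise, no subunit passed that threshold, which 5.45% of the 12918 genes tested passed. At an unadjusted p under 0.05 none was found by edgeR's quasi-likelihood test, where 5.95% of all genes were. By edgeR's likelihood ratio test and by DESeq2 1 was found (*SMARCC2*), and the share of all genes in these is not given here. The log2 fold changes were lower for 8 of the 9 genes with TMM, beside 51.5% of all genes, but for 5 of 9 with libraries scaled by their totals alone, beside 42.6%, and for 6 of 9 without control siRNA replicate 1. Scaling by totals alone moved the median of all genes from -0.022 to 0.11. The median over the 9 genes was -0.19 with TMM, and -0.074 without control siRNA replicate 1, where no member passed the study's threshold, beside 7.75% of all genes. *SMARCA2*, *SMARCC1* and *SMARCC2* did not overlap with control siRNA and were lower, as were 19.7% of all genes, and none did not overlap as higher, beside 20.1% of all genes. *ARID1B*, at 125 CPM in the nearest library of either group, overlapped on the scale of these 4 libraries. Without control siRNA replicate 2, the comparison again resting on the library that stands apart, 1 member (*SMARCC2*) passed the study's threshold, beside 31% of all genes.

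To compare the knockdowns without the control libraries, *CHD4* siRNA was set directly against *TRPS1* siRNA. In this comparison 8 of the 9 log2 fold changes were below 0, beside 50.2% of all genes, and the count was the same with libraries scaled by their totals alone and with DESeq2's size factors, and 6 of 9 without *TRPS1* siRNA replicate 2. The *CHD4* siRNA libraries were below the *TRPS1* siRNA libraries without overlap for 5 genes, *ARID2*, *SMARCA2*, *SMARCC2*, *SMARCE1* and *PBRM1*, beside 23.8% of all genes, and above for none, beside 23.3%. The median was -0.097, beside -0.0013 over all genes. No subunit passed the study's threshold (3.67% of all genes), and none passed at an adjusted p under 0.05 by edgeR or DESeq2 without a replicate term. In that edgeR fit no gene at all passed at an adjusted p under 0.05. With a replicate term members did pass, as did many other genes, and that fit is given with the alternatives below. At an unadjusted p under 0.05 edgeR found 3, *SMARCC2*, *SMARCE1* and *SMARCA2*, beside 15.4% of all genes. DESeq2, whose share of all genes is not given here, found the first 2 of these 3. The 3 fell to 1 without *TRPS1* siRNA replicate 1 or without *CHD4* siRNA replicate 1, to 0 without *TRPS1* siRNA replicate 2, and to 0 when all 6 libraries shared one estimate of the spread. All 9 intervals lay between -0.94 and 0.43, within a 2-fold change in either direction. The summed level of the 9 genes was 1357 and 1152 CPM in the control libraries, 1172 and 1196 CPM upon silencing *TRPS1*, and 986 and 1017 CPM upon silencing *CHD4*. In these bulk libraries, fewer cells with a transcript and less of it per cell cannot be told apart.

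The difference between libraries of a group set how far each comparison could go. In the control group the log2 of replicate 1 over replicate 2 was 1.06 for *SMARCC2*, 0.79 for *SMARCA4* and 0.64 for *SMARCE1*, and it was -1.12 for *PBRM1* and -0.53 for *ARID2*. The first 3 were thus higher, and both PBAF genes lower, in control siRNA replicate 1. The median size of this difference over the 9 genes was 0.53 in the control group, 0.11 in the *TRPS1* siRNA group and 0.14 in the *CHD4* siRNA group, beside 0.72, 0.21 and 0.26 over all genes.

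**Figure D3:**
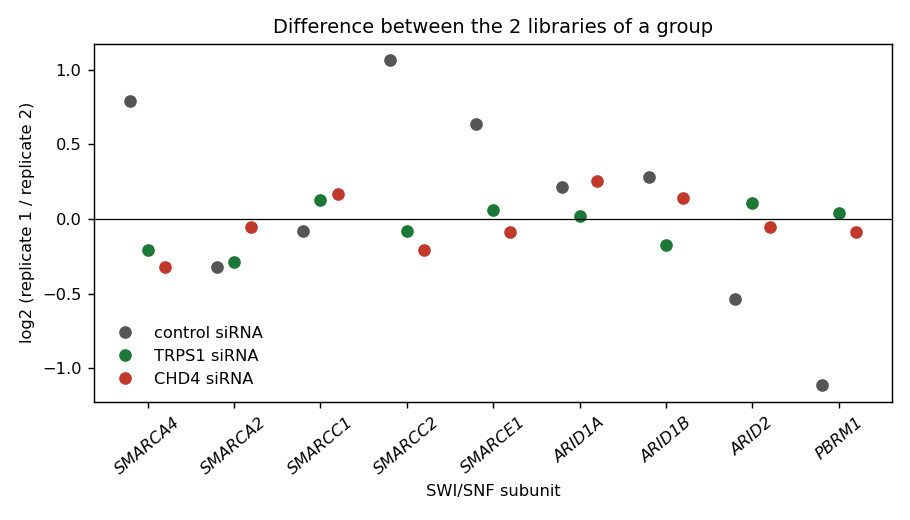
Log2 ratio of replicate 1 to replicate 2 (y axis) for each SWI/SNF subunit (x axis) in the control (grey), *TRPS1* siRNA (green) and *CHD4* siRNA (red) groups. The control points spread from -1.12 to 1.06 and the knockdown points stay between -0.32 and 0.25.

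Ratios of counts within a library do not depend on how libraries are scaled, and 5 were taken between paralogs or between subunits of PBAF and BAF. A ratio of counts also holds the lengths of both transcripts, so only its change between libraries is read. The ratio of *SMARCC2* to *SMARCC1* was 1.74 and 0.787 in the control libraries, 1.13 and 1.31 upon silencing *TRPS1*, and 0.762 and 0.990 upon silencing *CHD4*. The ratio of *SMARCA2* to *SMARCA4* was 0.197 and 0.426, then 0.305 and 0.323, then 0.273 and 0.227 in the same order. The ratio of *ARID2* to *ARID1A* was 2.41 and 4.06, then 4.10 and 3.87, then 2.85 and 3.53. These 3 ratios were lower upon silencing *CHD4* than upon silencing *TRPS1* without overlap, by log2 differences of -0.48, -0.34 and -0.33. Each had an exact two-sided permutation p of 0.333, the smallest that 2 libraries against 2 allow, and 1 after adjustment over the 5 ratios and 4 comparisons. For *SMARCA2* to *SMARCA4* the control libraries spanned all 4 knockdown libraries.

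The ratio of *ARID1B* to *ARID1A* was the steadiest, between 1.91 and 2.26 in all 6 libraries. The ratio of *PBRM1* to *ARID1A* was 0.574 and 1.45 in the control libraries and between 1.20 and 1.52 in the 4 knockdown libraries. Only control siRNA replicate 1 stood away from the rest. With both knockdowns as 1 group the difference from control siRNA was 0.62 on the log2 scale, with an exact two-sided permutation p of 0.133. It did not pass, either before or after adjustment over the ratios and comparisons. The 2 groups overlapped.

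**Figure D4:**
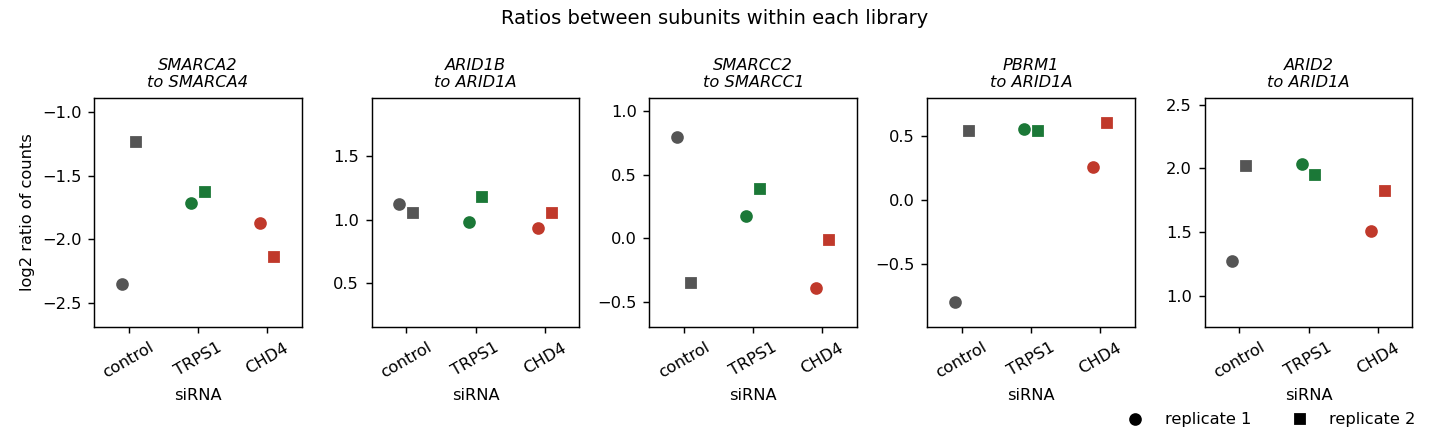
Log2 ratio of counts (y axis, the same span in each panel) for 5 pairs of SWI/SNF subunits in the 6 libraries; circles are replicate 1 and squares replicate 2. The control libraries lie farthest apart in every panel but *ARID1B* to *ARID1A*, and *SMARCC2* to *SMARCC1* is lower in both *CHD4* siRNA libraries than in both *TRPS1* siRNA libraries.

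Of 20 further SWI/SNF subunit genes, 16 passed the filter, and *ACTL6B*, *DPF3*, *BCL11A* and *BCL11B* were too low to test. None of the 16 passed the study's threshold in any of the 3 comparisons. Their median log2 fold change was -0.043 for *TRPS1* siRNA and 0.11 for *CHD4* siRNA against control siRNA, and 0.059 for *CHD4* siRNA against *TRPS1* siRNA. The first turned to 0.29 without control siRNA replicate 1, with 10 genes higher and 6 lower, and the second was 0.17, with 13 higher and 3 lower. In the direct comparison 4 of the 16 were above without overlap, beside 23.3% of all genes, and none below, beside 23.8%.

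The 2 with the largest fold changes against control siRNA were *BCL7C*, an accessory subunit, and *DPF2*, which encodes a BAF subunit with PHD fingers. *BCL7C* was at 32.1 and 8.49 CPM in the control libraries, 5.67 and 9.46 CPM upon silencing *TRPS1*, and 7.78 and 9.28 CPM upon silencing *CHD4*. Its log2 fold changes of -1.43 and -1.26 became -0.11 and 0.058 without control siRNA replicate 1. *DPF2* was at 201 and 92.7 CPM in the control libraries and between 83.7 and 94.1 CPM in the 4 knockdown libraries, and its log2 fold changes of -0.76 and -0.69 became -0.055 and 0.027. Both genes thus stood apart in a single control library. Between the knockdowns the largest were *BCL7A*, an accessory subunit, at 0.34 (95% interval -0.20 to 0.88) and *SMARCD1*, a core BAF60 subunit, at 0.31 (95% interval -0.025 to 0.65).

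For the opposing remodeler, 15 NuRD genes were tested. In *TRPS1* siRNA against control siRNA 1 passed the study's threshold as lower and none as higher, beside 5.87% of all genes, and their median was -0.39, or -0.026 without control siRNA replicate 1. In *CHD4* siRNA against control siRNA 1 passed as lower, *CHD4* itself, beside 5.45% of all genes, and the median was -0.21, which turned to 0.13 without that library. Between the knockdowns *CHD4* passed as lower and 1 gene as higher, beside 3.67% of all genes, with a median of 0.023. The gene that passed beside *CHD4* was *GATAD2A*, which encodes a NuRD scaffold subunit and is named after its values were seen (log2 fold change -1.94 for *TRPS1* siRNA against control siRNA and 2.04 between the knockdowns). None of 8 genes of the ISWI and INO80 families passed in any comparison, and their medians were 0.41, 0.26 and -0.091 for *TRPS1* siRNA and *CHD4* siRNA against control siRNA and for *CHD4* siRNA against *TRPS1* siRNA. The first 2 were 0.17 and 0.057 without control siRNA replicate 1.

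The genes whose pattern over the 6 libraries was most like that of *SMARCA4* were *FLOT2*, *PIANP* and *ERP29*, at root mean square differences of 0.042 to 0.068 on the log2 scale after centring, among 13268 genes. Those most like *SMARCA2* were *COQ5*, *GFOD2* and *COBLL1*, at 0.043 to 0.068. Among the other SWI/SNF members, the nearest to *SMARCA4* was *ARID1B* at 0.20, and the nearest to *SMARCA2* was *ARID2* at 0.16. The genes named first are the nearest of 13268, so their smaller values do not show whether the members vary together. The rank of the members among all genes is not given here. The ATPases themselves differed by 0.36.

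TRPS1 binding was examined at the same genes in the list of 1844 ChIP-seq peaks, made from 2 TRPS1 ChIP libraries and 2 input libraries on hg38 and without a height for each peak. A peak in the gene or within 50 kb of its start was found for *ARID1A* and *SMARCE1*, 2 of the 7 members whose start could be placed, beside 11.4% of 15843 protein-coding genes. The peak at *ARID1A* (chr1:26693026-26693350) lay 2.67 kb upstream of its start. Those at *SMARCE1* (chr17:40617923-40618245 and chr17:40618790-40619218) lay 6.72 and 5.74 kb beyond the end of the gene and 29.6 and 28.6 kb from its start. *ARID2*, whose strand was not available here, held a peak inside the gene (chr12:45878761-45878967). *SMARCC2* had its nearest peak 35.9 kb from the gene, and *SMARCA4*, *SMARCA2*, *SMARCC1*, *PBRM1*, *ARID1B* and *SMARCB1* had none within 243 kb. Of the genes with a peak near or inside, *SMARCE1* was above both control libraries upon silencing *TRPS1*, as were 22.8% of all genes. *ARID2* lay between the control libraries. *ARID1A* was just below them with all libraries scaled at once, but overlapped when the libraries of that comparison were scaled on their own. Upon silencing *CHD4*, *SMARCE1* lay between the control libraries. Whether a peak bears on these levels was not tested.

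TRPS1 is a GATA-type factor, and the WGATAR element (that is AGATAA and its variant AGATAG, as well as TGATAA and its variant TGATAG, on either strand) was searched in RefSeq promoter windows of GRCh38.p14, 250 bases before to 50 after a start. The element was found in 1 of 13 windows of the 7 members, beside 25.0% of 35116 promoters. The window of *ARID1A*, the member with the peak nearest to its start, is shown with that of *SMARCA2*, the only one that held the element, here in capitals and in a window of a downstream start, not that of the gene's first.
ARID1A promoter, chr1:26695765-26696064, plus strand: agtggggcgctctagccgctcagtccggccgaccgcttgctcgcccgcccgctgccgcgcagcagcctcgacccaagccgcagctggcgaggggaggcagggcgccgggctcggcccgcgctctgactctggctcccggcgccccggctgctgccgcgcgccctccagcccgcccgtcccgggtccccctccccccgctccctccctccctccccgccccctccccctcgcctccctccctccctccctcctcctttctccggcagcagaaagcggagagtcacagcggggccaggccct
SMARCA2 promoter, chr9:2021695-2021994, plus strand: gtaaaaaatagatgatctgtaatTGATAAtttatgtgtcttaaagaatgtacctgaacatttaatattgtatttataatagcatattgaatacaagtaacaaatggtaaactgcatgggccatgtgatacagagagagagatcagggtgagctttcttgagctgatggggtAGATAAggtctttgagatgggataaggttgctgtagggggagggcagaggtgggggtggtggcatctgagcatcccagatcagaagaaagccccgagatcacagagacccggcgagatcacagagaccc
The *ARID1A* window is 78.0% G or C and the *SMARCA2* window 43.0%, beside a median of 58.7% over all promoters. The peak at *ARID1A* lay outside its window, and no peak was within 2297 kb of *SMARCA2*.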

How the data were processed

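RNA-seq counts from 6 T47D libraries and a list of TRPS1 ChIP-seq peaks were examined. According to the methods, the authors used STAR to align RNA-seq reads and HTSeq (0.9.0) to count them per gene, and the raw counts were deposited without normalization, with the control libraries repeated in both tables. The authors called peaks with MACS2 (2.1.1) after alignment with BWA (0.7.12-r1039), on hg38 in the submitters' processing notes; whether libraries were pooled is not given in the sources used here.

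Groups were compared in edgeR (4.0.16, R 4.3.3). Genes over 2 CPM in at least 2 libraries were kept, TMM factors applied and the quasi-likelihood test run without covariates, two-sided, with Benjamini-Hochberg adjustment over all genes tested. Likelihood ratio, DESeq2 (1.42.0), other scalings and filters, a replicate block and leaving out each library were the alternatives. Ratios of counts were compared by exact permutation tests, and adding a pseudocount of 0.5 was an alternative for their size. The fit was tested on simulated data. All members were named, with the 2 further subunits of largest fold change in each comparison (those past the study's threshold, had there been any), only *CHD4* of the other remodelers, and the 3 genes nearest to each ATPase; *GATAD2A*, *SMARCD3* and the markers were named after their values were seen. Members and lists were chosen with earlier results of these data known. Transcript lengths were not used, so levels were not compared between genes. Antisense or overlapping transcripts cannot be told apart, as strand in counting is not stated.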

Additional observations from a re-analysis of the deposited data

Results flagged for a closer look

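In *CHD4* siRNA against *TRPS1* siRNA the effects of the knockdowns differed for 3 subunits at an unadjusted p under 0.05 by edgeR, while none passed after adjustment in the fit without a replicate term: *SMARCC2* (log2 fold change -0.58), *SMARCE1* (-0.50) and *SMARCA2* (-0.44). Each was lower in both *CHD4* siRNA libraries than in both *TRPS1* siRNA libraries. At that threshold 15.4% of all genes tested differed.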

How the results depend on the processing

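Of the members' fold changes under the 8 alternatives that keep every library, 71, 69 and 72 of 72 kept their direction and side of the threshold in *TRPS1* siRNA and *CHD4* siRNA against control siRNA and in *CHD4* siRNA against *TRPS1* siRNA. With libraries scaled by their totals alone, *SMARCA4* turned to 0.039 for *TRPS1* siRNA, and *ARID1A*, *ARID2* and *SMARCE1* turned to 0.010, 0.012 and 0.057 for *CHD4* siRNA, against control siRNA.

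Genes at an adjusted p under 0.05, of which edgeR's quasi-likelihood test called 0 in each comparison, came to 34, 58 and 570 by the likelihood ratio test and 39, 50 and 456 by DESeq2, in the order above. Without a filter on low counts they came to 111 in *CHD4* siRNA against control siRNA and 424 between the knockdowns, and the genes past the study's threshold to 1359, 1403 and 751, against 759, 704 and 483 with the filter. Between the knockdowns that count was 313 with over 2 CPM asked of every library and 320 with all 6 libraries in one fit, where 0 members had an unadjusted p under 0.05. In *CHD4* siRNA against control siRNA, *SMARCC2* alone of the members had an unadjusted p under 0.05 in some alternatives that keep every library. These were the likelihood ratio test, DESeq2, no filter, and all 6 libraries in one fit. By the quasi-likelihood test no member did, beside 5.95% of all genes, and the share of all genes under these alternatives is not given here. A peak in the gene or within 5 kb of its start was found for 1 of 7 members, *ARID1A*, beside 5.54% of 15843 protein-coding genes. The cause of these changes was not tested.

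The labels do not say whether libraries of the same number share more than that number. Their deviations correlated at 0.074 (control and *TRPS1* siRNA), 0.015 (control and *CHD4* siRNA) and 0.63 (*TRPS1* and *CHD4* siRNA). With the replicate block, 1221 genes passed the study's threshold for *TRPS1* siRNA, and 32, 44 and 3372 genes passed an adjusted p under 0.05. At that adjusted p under the block, 4 of 9 members passed between the knockdowns, *SMARCC2*, *SMARCE1*, *SMARCA2* and *ARID2*. Beside them stood the 3372 of 13143 genes tested that passed.

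Leaving out each library in turn gave 74 to 4304 genes past the study's threshold for *TRPS1* siRNA and 91 to 3969 for *CHD4* siRNA against control siRNA, the highest without control siRNA replicate 2. Genes at an adjusted p under 0.05 ran from 0 to 6070, 0 to 3874 and 0 to 103. Members past the study's threshold ran from 0 to 1, and at an adjusted p under 0.05 from 0 to 2, in both comparisons with control siRNA, and members at an unadjusted p under 0.05 ran from 0 to 3, 0 to 2 and 0 to 2. For *TRPS1* siRNA against control siRNA the ranges that crossed 0 were -0.27 to 0.0044 (*ARID1A*), -0.31 to 0.033 (*ARID1B*), -0.023 to 0.45 (*ARID2*), -0.041 to 0.23 (*SMARCA2*), -0.46 to 0.40 (*SMARCA4*) and -0.85 to 0.28 (*SMARCC2*), and *PBRM1* ran from 0.018 to 1.08. For *CHD4* siRNA against control siRNA they were -0.25 to 0.037 (*ARID1A*), -0.32 to 0.14 (*ARID2*), -0.55 to 0.31 (*SMARCA4*), -0.39 to 0.33 (*SMARCE1*) and -0.074 to 0.98 (*PBRM1*), and *SMARCC2* ran from -1.43 to -0.30. Between the knockdowns they were -0.11 to 0.16 (*ARID1A*), -0.14 to 0.031 (*ARID1B*) and -0.25 to 0.063 (*SMARCA4*). A lone library in a group is assumed to vary like the others. The highest member counts against control siRNA came without control siRNA replicate 2. That run also gave the most genes passing over all genes, so these counts do not set the members apart.

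With 2 libraries a group, the median width of a member's 95% interval was 1.66 and 1.78 on the log2 scale against control siRNA and 0.72 between the knockdowns. Every member had at least 413 counts in each library.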

Other observations

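Without control siRNA replicate 1, and with the lone control library assumed to vary like the others, 1 of the 16 further SWI/SNF subunits passed the study's threshold in each comparison with control siRNA, beside 8.11% of all genes for *TRPS1* siRNA and 7.75% for *CHD4* siRNA. It was *SMARCD3*, a BAF60 paralog, chosen here after its values were seen. *SMARCD3* was at 12.7 and 4.40 CPM in the control libraries, 11.4 and 9.20 CPM upon silencing *TRPS1*, and 10.6 and 8.64 CPM upon silencing *CHD4*. Its log2 fold changes were 1.27 and 1.17 without that library, and 0.26 and 0.16 with it.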
